A study of Gallus gallus with 6 samples.

Results

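Histone lysine and protein arginine methyltransferases were described in chicken neural crest cultures through 10 genes: EZH2, EHMT1, SETDB1, SUV39H1, DOT1L, PRMT1, PRMT3, PRMT5, PRMT7 and CARM1. A probe set (the group of short probes that reads a transcript on an Affymetrix array) was taken as a member where the platform annotation gives it that gene's symbol. This found 20 of the 38382 chicken probe sets, for 7 of the 10 genes. SETDB1, SUV39H1 and CARM1 have no probe set under their symbols and were not analysed here. For each gene the main probe set was the set with the highest mean over the 6 arrays.

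These enzymes move a methyl group from S-adenosylmethionine onto a lysine or an arginine of histones and other proteins, and each transfer leaves S-adenosylhomocysteine. That by-product inhibits most methyltransferases, and the enzyme AHCY splits it into adenosine and homocysteine in a reversible reaction. Lysine methylation of histones marks silent or active genes, depending on the residue, and several of the enzymes act in the choice of cell fate in the early embryo.

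The cultures were neural crest cells, which migrate away from the dorsal side of the neural tube, grown from neural tube explants of stage 9+ embryos. After 4 h in culture, 3 samples stayed in media (control) and 3 received homocysteine at 100 uM, and both stayed so for 6 h. Genotype and strain are not given in the labels, nor is it said whether samples of a group came from separate cultures, so that p-values cover only the scatter among these samples, in which technical scatter may have a part. The only comparison in the design asks which transcripts respond to homocysteine. Total RNA was read on 1-colour arrays as linear intensities. RNA of whole cultures was measured, so fewer cells of a type and less RNA per cell cannot be told apart.

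The background of each array was taken as the 95th percentile of its 57 reporter probe sets, which match exogenous sequences. It was 53.7, 64.3 and 65.6 on control arrays 1 to 3 and 77.2, 84.9 and 53.2 on homocysteine arrays 1 to 3. The replicate 1 arrays of both groups had a ratio of 5' to 3' signal for ACTB of 0.0572 and 0.059, against 0.238 to 0.421 on the other 4 arrays. Of 16 listed neural crest markers, 12 were above background on all 6 arrays, and CDH6 and NGFR on none. The summed intensity of the 16 markers ranged from 26504 to 34750 in control and from 23346 to 40226 with homocysteine. ITGA4, the brightest of them, made up a large part of this sum. It alone read 6407.5 to 14503.4 in control and 9522.6 to 17363.3 with homocysteine. The counts above background on all 6 arrays were 7 of 7 measured neural tube markers, 6 of 9 neuron markers, 3 of 9 mesoderm and somite markers, 4 of 7 surface ectoderm markers and 4 of 8 blood and endothelium markers. Summed over each list, the levels overlapped between the groups in 4 of these 5 lists. Neuron markers gave 17054 to 18162 in control and 18293 to 20489 with homocysteine, which do not overlap. NEFM, a neurofilament gene, carried most of this sum, and without it the other 8 markers gave 6698 to 7045 and 6305 to 7153, which overlap (a split made after seeing the data). Their part in the values below was not tested.

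All 7 measured methyltransferase genes read above background on every array by their main probe sets, as did 7925 of all 13009 genes. No difference between homocysteine and control was detected for any of the 7. Their log2 changes lay between -0.15 for EZH2 and 0.09 for PRMT5, 3 positive and 4 negative, with a median of -0.02. The signs of small changes hung on the scaling: with arrays centred on their medians EHMT1 and DOT1L became -0.039 and -0.011, and with quantile normalization PRMT3 and PRMT7 became 0.036 and 0.031. The median over the main probe sets of all 13009 genes was 0.0084, with 51.6% positive. Of the 20 member probe sets 0 passed an adjusted p of 0.05 (limma, Benjamini-Hochberg over 38382 probe sets), and all 20 had an adjusted p of 0.9999. The share called over the whole array was also 0%. At an unadjusted p under 0.05 there were 0 member probe sets by limma and 0 by an unmoderated statistic, against 3.97% and 3.32% of all probe sets. Groups overlapped in all 20 member probe sets. Of the 10 member sets above background on every array, 0 had groups fully apart, and 3.96% of all such probe sets did. A share of that size among 10 sets cannot be told from 0.

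**Figure D1:**
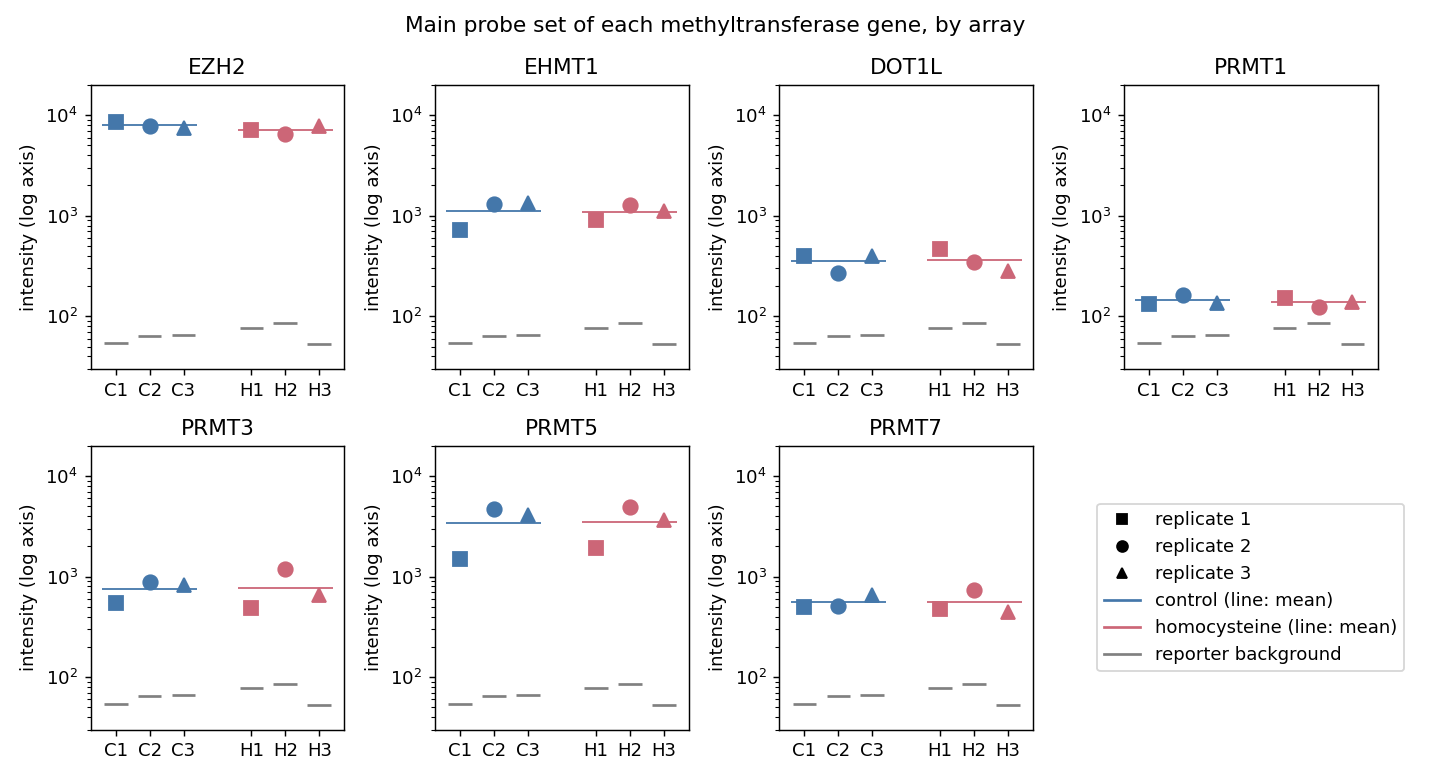
Intensity (log axis) of the main probe set of each of the 7 genes on the control (C1 to C3) and homocysteine (H1 to H3) arrays. Coloured lines are group means and grey bars the reporter background of each array. Every point lies above its grey bar, the groups overlap in each panel, and for PRMT5 the replicate 1 arrays read 1495.5 and 1904.3 where the other 4 read 3636.2 to 4948.5.

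Of the 20 probe sets, 10 were above background on all 6 arrays (37.6% of all chicken probe sets were), 4 on some arrays and 6 on none. Each dim set belongs to a gene with a brighter set above background on all 6 arrays, though for PRMT1 that set is itself near background, and no fold is given for the 6 that were above background nowhere. Of these 6, 1 is listed for EZH2, 1 for EHMT1 and 4 for DOT1L. As a multiple of the background of the same array, the main sets ranged from 77 to 158 for EZH2, from 24.7 to 72.3 for PRMT5, from 11.8 to 21 for EHMT1, from 6.24 to 14.1 for PRMT3, from 6.23 to 10.1 for PRMT7 and from 4.10 to 7.40 for DOT1L.

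EZH2 is the catalytic subunit of Polycomb repressive complex 2, which methylates a lysine of histone H3 at silenced developmental genes. Its main probe set read 8479.5, 7786.5 and 7486.1 on control arrays 1 to 3 and 7166.4, 6534.8 and 7784.9 on homocysteine arrays 1 to 3. The groups overlapped only through homocysteine 3, which lay between control 3 and control 2. Means were 7917 ± 509.5 (control) and 7162 ± 625.1 (homocysteine, SD, n = 3 each), for a log2 change of -0.15 (limma, 95% interval -0.77 to 0.47). On the linear scale this interval runs from 0.588-fold to 1.39-fold. A further EZH2 set gave 1352 ± 143 and 1226 ± 205.6 (SD, n = 3 each), with a log2 change of -0.15 (95% interval -0.83 to 0.53). Its groups overlapped too, but here homocysteine 3 was the lowest of the 6 arrays, at 1005.6. The identifier of this set ends in _s_at, the suffix of sets whose probes also match other transcripts. So do those of the main sets of EHMT1, PRMT5 and PRMT7 and of the dimmer EHMT1 set described below.

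EHMT1 (also called GLP) forms, with EHMT2, the main enzyme for mono- and dimethylation of a histone H3 lysine in silent euchromatin. Its main set read 718.1, 1303.4 and 1339.6 in control and 913.8, 1268.8 and 1118.7 with homocysteine. In both groups the lowest array was replicate 1, and the homocysteine values lay inside the control range. Group means were 1120 ± 348.8 and 1100 ± 178.2 (SD, n = 3 each). The log2 change, taken between means of log2 values, was 0.02 (95% interval -0.86 to 0.90), opposite in sign to the difference of these means. A dimmer EHMT1 set read 107.6, 269.6 and 246 in control and 95, 266.8 and 193.2 with homocysteine, between 1.23 and 4.19 times the background of its array. The values were lower with homocysteine at each replicate number, with log2 ratios of -0.18, -0.02 and -0.35, and the 95% interval from -1.54 to 1.18 includes 0. Replicate 1 was again the lowest array of both groups.

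DOT1L, the enzyme that methylates a lysine in the globular core of histone H3 and lacks the SET domain of the other lysine methyltransferases, has 7 probe sets here. The main set read 397.1, 267.7 and 396.4 in control and 470.4, 348.1 and 282.6 with homocysteine. No ordering by group appeared, since homocysteine held both the highest value and a value close to the lowest. Its means were 353.7 ± 74.51 and 367 ± 95.32 (SD, n = 3 each), for a log2 change of 0.05 (95% interval -0.78 to 0.87). The DOT1L set with the second-highest mean came closest to separating the groups among the 10 sets above background on every array. It read 158.5, 113.6 and 143.6 in control and 191.9, 157.3 and 193.2 with homocysteine, higher at each replicate number. Control 1 still lay just above homocysteine 2, and the log2 change of 0.39 had a 95% interval from -0.30 to 1.08 and an unadjusted p of 0.212 (limma). Of the remaining DOT1L sets, the brightest was above background on 5 arrays, with the highest value, 217.8, and the lowest, 69, both in homocysteine. The other 4 read between 1.3 and 65.6 and never exceeded the background. Both DOT1L sets above background on every array gave positive log2 changes, and the set above it on 5 arrays gave -0.07. Each of their 95% intervals included 0, and the set at 0.39 was picked for mention after its values were seen.

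**Figure D2:**
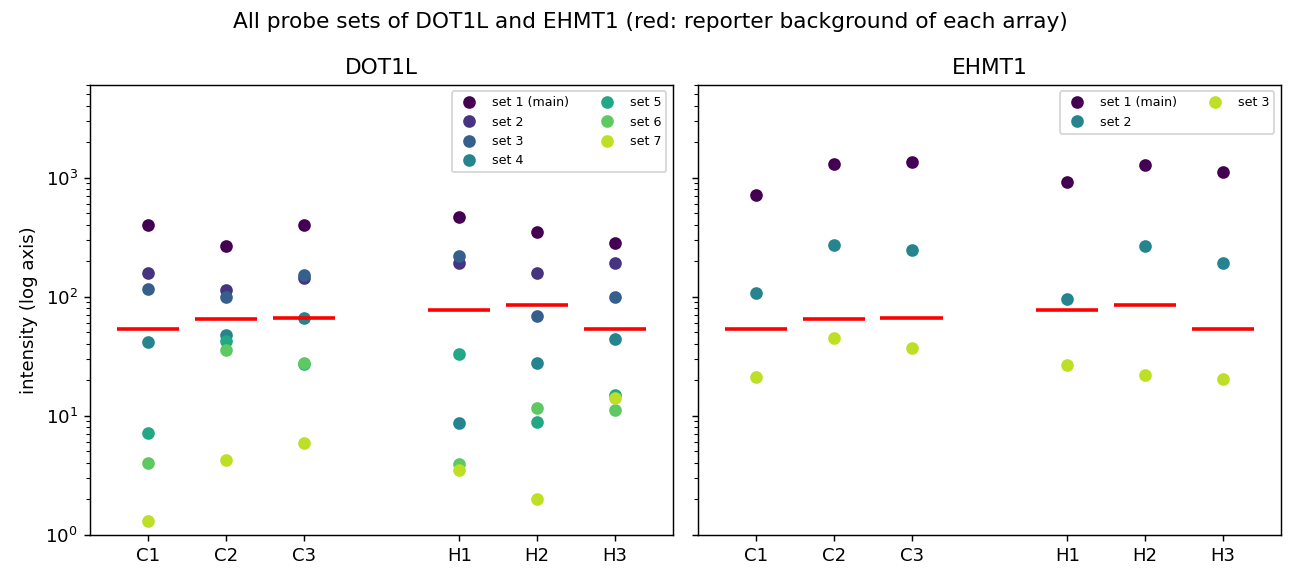
Intensity (log axis) on each array of the 7 DOT1L and 3 EHMT1 probe sets, numbered from the highest mean down, with the reporter background of each array as a red bar. For DOT1L sets 1 and 2 lie above the bars on all 6 arrays and sets 4 to 7 on none. EHMT1 sets 1 and 2 are lowest on replicate 1 in both groups.

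The arginine methyltransferases fall into 3 types by the product they leave. PRMT1, PRMT3 and CARM1 make asymmetric dimethylarginine (type I), PRMT5 makes symmetric dimethylarginine (type II), and PRMT7 makes monomethylarginine (type III), as known mostly from mammals.

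PRMT1 is the main type I enzyme of mammalian cells. The main set annotated to it read 133.7, 164.4 and 135.2 in control and 153.6, 123.3 and 139.6 with homocysteine, between 1.45 and 2.62 times the background of its array. The lowest value was a homocysteine array and the highest a control array, and the groups overlapped. Means were 144.4 ± 17.31 and 138.8 ± 15.16 (SD, n = 3 each), with a log2 change of -0.06 and a 95% interval from -0.71 to 0.59. The other PRMT1 sets were above background on 5 and 4 of the 6 arrays and read between 18.9 and 120.6. The gene behind this symbol is uncertain. In the RefSeq gene table of assembly GRCg7b, the gene that carries the symbol PRMT1 lies beside PARP11, TSPAN9 and TEAD4, which in human lie near PRMT8, the close paralog of PRMT1 known from brain, and 0 genes in that table are named PRMT8. Whether the probe sets read the counterpart of human PRMT1 or of PRMT8 was not tested.

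PRMT3, a type I enzyme of the cytosol whose best-known substrate is a protein of the small ribosomal subunit, has 1 probe set. It read 545.7, 873.7 and 823.3 in control and 481.3, 1200.8 and 649.4 with homocysteine. The highest and the lowest of the 6 values were both homocysteine arrays. Means of 747.6 ± 176.6 and 777.2 ± 376.4 (SD, n = 3 each) gave a log2 change of -0.02 (95% interval -1.09 to 1.05), so the mean and the log2 change had opposite signs.

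PRMT5 acts with its partner WDR77 on spliceosomal Sm proteins and on histones. The main set read 1495.5, 4649.2 and 4061.5 in control and 1904.3, 4948.5 and 3636.2 with homocysteine. Replicate 1 stood far below the other arrays in both groups. The spread between arrays of a group was wide, at 3402 ± 1677 (control) and 3496 ± 1527 (homocysteine, SD, n = 3 each). The log2 change was 0.09 (95% interval -1.35 to 1.54), or 0.391-fold to 2.91-fold. A further PRMT5 set was above background on control 1 alone.

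PRMT7, which also has 1 probe set, read 503.1, 511.7 and 660.9 in control and 480.4, 738.8 and 447.5 with homocysteine. Both ends of the range were homocysteine arrays here as well. Means were 558.6 ± 88.73 and 555.6 ± 159.5 (SD, n = 3 each), and the log2 change was -0.03 (95% interval -0.82 to 0.76).

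**Figure D3:**
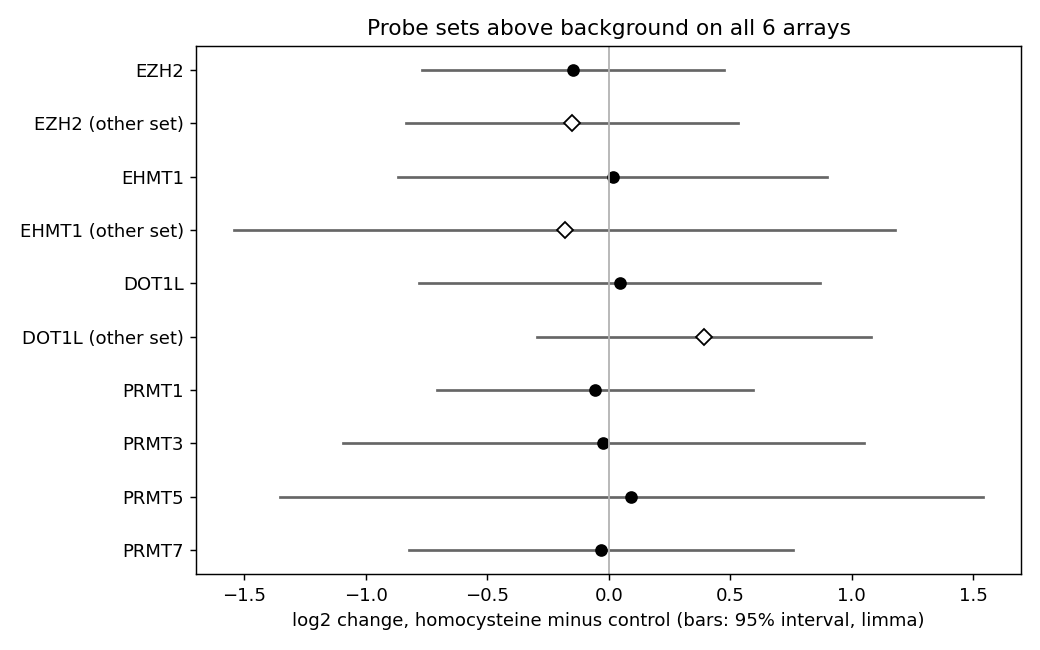
Log2 change of homocysteine against control with its 95% interval (limma) for the 10 member probe sets above background on all 6 arrays. Filled circles are main sets and open diamonds other sets of the same gene, and every interval crosses 0.

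The interval was narrowest for EZH2 among the 7 main sets, with a half-width of 0.62 in log2, and widest for PRMT5, at 1.45. In this fit a change smaller than its half-width could not be told from 0 even before adjustment. With the replicate number as a block, the half-width of PRMT5 was 0.66 and those of the 7 sets ran from 0.62 for EZH2 to 0.92 for PRMT7, and every interval again included 0.

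Arrays with the same replicate number were also set side by side. The labels do not say that a shared number marks a shared culture or day. The log2 ratio of homocysteine to control for EZH2 was -0.24, -0.25 and 0.06 at numbers 1, 2 and 3. EHMT1 gave 0.35, -0.04 and -0.26, and DOT1L gave 0.24, 0.38 and -0.49. All 7 main sets held at least 1 number at which the sign differed from the others. For PRMT1 the values were 0.20, -0.42 and 0.05, for PRMT3 -0.18, 0.46 and -0.34, for PRMT5 0.35, 0.09 and -0.16, and for PRMT7 -0.07, 0.53 and -0.56. Among the 10 sets above background on all arrays, 2 kept their sign at all 3 numbers, the DOT1L set described above and the dimmer EHMT1 set, where 25.5% of all such probe sets did. At number 3 the log2 ratio was negative for 5 of the 7 main sets, and at number 2 it was positive for 4.

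**Figure D4:**
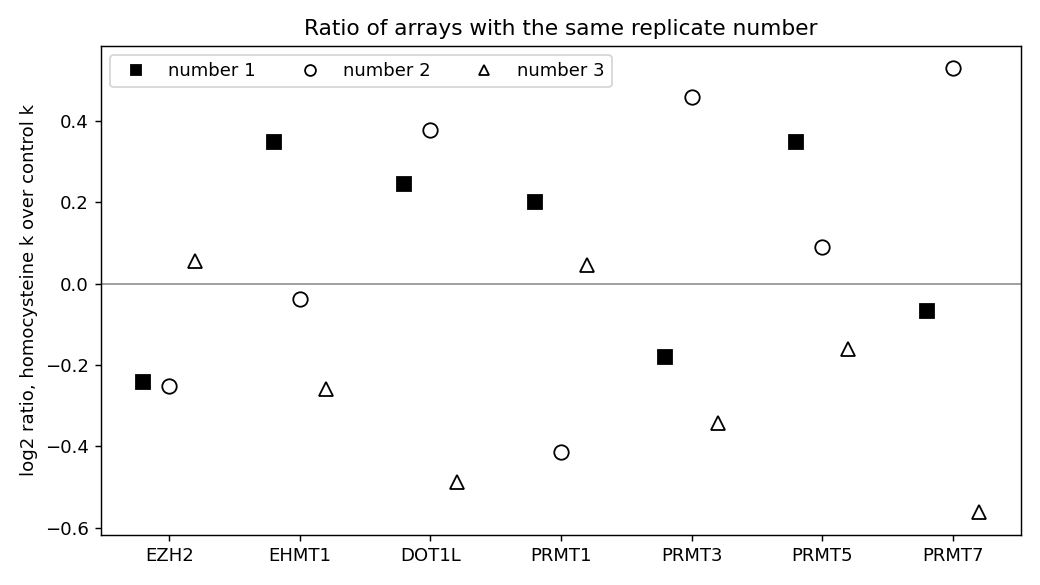
Log2 ratio of the homocysteine array to the control array with the same replicate number, for the main probe set of each gene. Each gene has points on both sides of 0. PRMT7 spans the most, from -0.56 at number 3 to 0.53 at number 2.

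The larger differences among these genes ran between replicate 1 and the other arrays, in control and homocysteine alike. PRMT5 was 2.54-fold lower on the replicate 1 arrays than on the other 4 by mean log2, PRMT3 1.69-fold and EHMT1 1.55-fold, or 2.39-fold by its dimmer set. That dimmer set was near background on homocysteine 1, at 95 against 77.2. In these 4 probe sets both replicate 1 arrays lay below all others, as they did in 24% of all probe sets above background on every array. The replicate 1 arrays were lower by at least 2-fold in 2 of the 10 member sets and in 7.2% of all. The main DOT1L set and the dimmer EZH2 set were higher on both replicate 1 arrays than on all others (23.5% of all), by 0.44 and 0.28 in log2, while the main EZH2 set differed by 0.08 and PRMT1 by 0.04. This split is a description of 2 arrays against 4 and has no test. The same arrays had the low ACTB ratio given above and a ratio of 5' to 3' signal for GAPDH of 0.318 and 0.324, against 0.456 to 0.694. Of the 12 neural crest markers above background, 8 were lower on both replicate 1 arrays than on all others, and the median difference of the 12 was -1.10 in log2. The same held for 5 of 7 neural tube markers, 2 of 6 neuron markers, 0 of 3 mesoderm and somite markers, 0 of 4 surface ectoderm markers and 0 of 4 blood and endothelium markers. In the other direction, 2 of the 6 neuron markers and 2 of the 4 blood and endothelium markers were higher on both replicate 1 arrays than on all others. Each of the remaining marker lists had 0 such genes. The part of RNA quality or of cell makeup in the methyltransferase values was not tested. Without both replicate 1 arrays, the log2 change from control to homocysteine was -0.03 for PRMT5, 0.06 for PRMT3 and -0.15 for EHMT1, each with an adjusted p of 0.9999 (limma). Of the 20 member probe sets, 3 then had an unadjusted p under 0.05, against 5.49% of all probe sets, and these 3 were above background on no array.

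**Figure D5:**
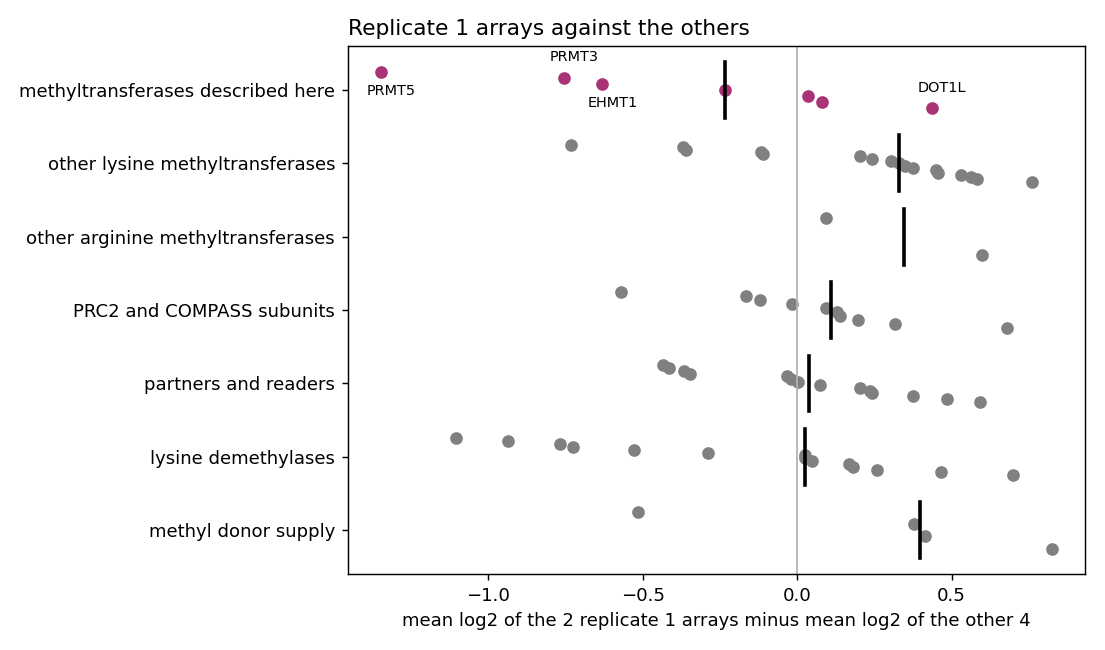
Mean log2 intensity of the 2 replicate 1 arrays minus that of the other 4, for main probe sets above background on all 6 arrays, with the median of each list as a black bar. Among the methyltransferases described, PRMT5 (-1.35), PRMT3 (-0.76) and EHMT1 (-0.63) lie lowest and DOT1L (0.44) highest, while the median of the other lysine methyltransferases is 0.33.

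The wider machinery was read through 6 lists with 97 genes, of which 73 were measured under their symbols. By limma 0 of the 73 passed the adjusted threshold and 0 had an unadjusted p under 0.05. An unmoderated statistic put 3.32% of all probe sets there, dim and unannotated ones included, and by main sets 2 of the 73, JARID2 and JMJD6. Of the 61 above background on all 6 arrays, log2 changes were above 0 in 31 and below it in 30 (median 0.008), and 50.9% of the 7925 such genes on the array were positive, with a median of 0.0036.

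Among the other lysine methyltransferases 0 of 22 measured genes passed, with log2 changes above 0 in 10 and below it in 12 (median -0.0094). SUV39H2, the paralog of SUV39H1 that trimethylates histone H3 in heterochromatin, gave 2424 ± 504.3 (control) and 2278 ± 109.6 (homocysteine, SD, n = 3 each). SETD2, which trimethylates a histone H3 lysine along transcribed genes, gave 3999 ± 1067 and 3877 ± 1029, and KMT2C, a methyltransferase of enhancers, 2934 ± 783.1 and 2820 ± 862.4 (SD, n = 3 each). Among the genes of this list above background on all 6 arrays, SMYD4 had the smallest p, at 1392 ± 195.6 and 1134 ± 238.4 (SD, n = 3 each), for a log2 change of -0.31 (95% interval -1.03 to 0.42). EZH1, the paralog of EZH2, was above background on 1 array and was picked after its value was seen. Of 2 measured other arginine methyltransferases, PRMT9 gave 2727 ± 315.9 and 2643 ± 162.1, and NDUFAF7, which methylates a subunit of respiratory complex I, 518.9 ± 125.9 and 435.1 ± 123.7 (SD, n = 3 each).

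The core partners of EZH2 were read well above background in both groups. EED, which binds the methylated histone tail and stimulates the complex, gave 9211 ± 1086 and 9439 ± 939.5 (SD, n = 3 each), for a log2 change of 0.04. That is the main EED set alone. With every EED probe set averaged, whatever its level, the log2 change was 0.46, with an adjusted p of 0.9999 (limma). SUZ12, the scaffold subunit, gave 3566 ± 1095 and 3443 ± 957.7, and RBBP4, a histone-binding subunit shared with other complexes, 18089 ± 1789 and 19083 ± 301.5 (SD, n = 3 each). MTF2, an accessory subunit that recruits the complex to CpG islands, gave 7486 ± 727 and 8278 ± 1135 (SD, n = 3 each). JARID2, an accessory subunit and substrate of the complex, was the gene in this list whose groups did not overlap, reading 1055.9, 1150.2 and 1345.2 in control and 895.3, 990.4 and 924.3 with homocysteine. Every control array lay above every homocysteine array, and the log2 change of -0.33 had a 95% interval from -0.97 to 0.30 and an adjusted p of 0.9999 (limma). These values are of the main JARID2 set alone. With every JARID2 probe set averaged, dim ones included, the log2 change was -0.04. Over the 6 lists, groups without overlap were found in 2 of 61 genes by main sets, or 3.28%. Of all probe sets above background on every array, dimmer sets of a gene and unannotated sets included, 3.96% had them. Of the 10 measured Polycomb and COMPASS subunits 0 passed, and log2 changes were above 0 in 7 and below it in 3 (median 0.03).

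Partners of the other enzymes gave no call either, with 0 of 17 measured genes past the threshold and log2 changes above 0 in 8 and below it in 9 (median -0.0063). WDR77, the partner of PRMT5, gave 6486 ± 677.7 and 6558 ± 1052 (SD, n = 3 each), for a log2 change of 0.008. Unlike PRMT5, it differed by only -0.03 in log2 between replicate 1 and the other arrays, and CLNS1A, which brings Sm proteins to PRMT5, by 0.0021. The difference between PRMT5 and its partners was not tested. CBX3, a reader of heterochromatic methylation, gave 10393 ± 1225 and 10624 ± 920.2, and BTG1, which binds PRMT1 in mammals, 12272 ± 1874 and 12212 ± 1826 (SD, n = 3 each). Above background on all 6 arrays, NCOA3, a coactivator that works with CARM1, had the smallest p of this list, at 111.1 ± 25.95 and 142.6 ± 29.19 (SD, n = 3 each).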

How the data were processed

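The 6 arrays, 3 control and 3 homocysteine, were grouped by sample title. The authors deposited a linear intensity for each probe set and array. RMA is named without a version in the submitters' processing notes, but RMA output would be on a log scale, which these values are not. Each array has a mean of 500.1 after trimming 2% at either end. How background was removed and probes were combined is not given in the sources used here. Platform annotation gave a single symbol for 27168 chicken probe sets, several for 177 and none for 11037. All 7 measured members were found by gene number in the RefSeq table (GRCg7b).

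Control and reporter sets (96 and 57) were left out, and log2 of each value was taken with no pseudocount. All 38382 remaining probe sets entered limma 3.58.1 in R 4.3.3 (lmFit, eBayes, two-sided), with Benjamini-Hochberg adjustment and a threshold of 0.05. The fit was checked on simulated data with independent errors and with changes far larger than those of the main member sets. Scatter shared by same-numbered arrays was not simulated. Errors are SDs over 3 arrays, whose number limits the precision. Members and lists were chosen with earlier results of these data known. Named list genes were the 3 brightest, any past the threshold, the smallest p above background where none passed, and EED, SUZ12, WDR77, EHMT2 and SUV39H2 where measured. Alternatives were the replicate block, filters, scalings, variance models, gene summaries, a pseudocount of 16, a threshold of 0.1, other background percentiles and leaving out arrays. The batch term for replicate 1 was added after seeing the data.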

Additional observations from a re-analysis of the deposited data

How the results depend on the processing

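The counts of probe sets past the threshold, 0 among the members, 0 among related genes and 0 in all, stayed at 0 in all 20 alternatives run, with 0 to 3 member probe sets at an unadjusted p under 0.05. The 3, found with both replicate 1 arrays left out, compare with 5.49% of all probe sets in that setting and were above background on no array (an EHMT1 set and 2 DOT1L sets, smallest adjusted p 0.631). All 7 main sets stayed above background on all 6 arrays with the 90th or 99th percentile of the reporter sets, and 6 with the highest reporter set of each array, where PRMT1 fell below. No named change had passed the test, and the sign turned in 30 of 140 member values and in 41 of 460 of the other named genes; the cause was not tested. The block, the batch term for replicate 1, the filter on background, other variances, another threshold and adjustment over genes leave log2 changes as they are. Raising dim values to background also leaves those of sets above background on all 6 arrays. Values under these settings could not turn sign but are counted in the 140 and 460. With quantile normalization log2 changes became -0.0090 for CBX3, -0.0095 for EED, 0.036 for PRMT3, 0.031 for PRMT7 and -0.022 for WDR77. Centring arrays on their medians gave -0.021 for CBX3, -0.011 for DOT1L, -0.019 for EED, -0.039 for EHMT1 and -0.048 for WDR77. Array weights gave -0.0053 for DOT1L, -0.11 for EHMT1, -0.081 for PRMT5, 0.00031 for SUV39H2, 0.042 for SUZ12 and -0.067 for WDR77. Averaging every probe set of each gene, dim ones included, gave -0.15 for AHCY, 0.076 for AHCYL1, -0.23 for DOT1L, -0.23 for EHMT1, 0.26 for EZH2 and -0.024 for KDM3A. The averages of EZH2, EHMT1 and DOT1L take in sets above background on no array. The EZH2 sets above background on all 6 arrays each gave -0.15. Leaving out both replicate 1 arrays gave -0.055 for DOT1L, -0.15 for EHMT1, 0.058 for PRMT3, -0.035 for PRMT5, 0.047 for PRMT9, 0.054 for SUV39H2 and -0.069 for WDR77. Over leaving out each array, the changes that turned sign ranged from -0.28 to 0.062 for AHCYL1, from -0.14 to 0.11 for BTG1, from -0.027 to 0.13 for CBX3, from -0.10 to 0.026 for CLNS1A, from -0.15 to 0.22 for DOT1L, from -0.038 to 0.13 for EED, from -0.28 to 0.17 for EHMT1, from -0.29 to 0.18 for KMT2C, from -0.13 to 0.041 for PRMT1, from -0.39 to 0.27 for PRMT3, from -0.42 to 0.48 for PRMT5, from -0.26 to 0.10 for PRMT7, from -0.13 to 0.035 for PRMT9, from -0.071 to 0.33 for RIOX1, from -0.29 to 0.18 for SETD2, from -0.18 to 0.093 for SUV39H2, from -0.26 to 0.19 for SUZ12 and from -0.10 to 0.14 for WDR77. Without turning sign, KDM3B ranged from -0.82 to -0.25, MAT2B from -0.63 to -0.07, NDUFAF7 from -0.48 to -0.06, SMYD4 from -0.47 to -0.20, NCOA3 from 0.17 to 0.51 and EZH2 from -0.21 to -0.08. The replicate block, which cannot alter a log2 change, also gave 0 calls and 2023 probe sets at an unadjusted p under 0.05, against 1524 without it, and a PRMT5 interval from -0.57 to 0.75. Whether numbers pair the arrays was not settled. Deviations of same-numbered arrays from group means correlated by 0.172, 0.108 and 0.0486 over all probe sets and by 0.786, 0.703 and 0.332 over those above background on all 6 arrays, and each of the 6 arrays was most like the array of its own number in the other group. A trended and robust variance narrowed the EZH2 interval to -0.49 to 0.20.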

Other observations

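Genes that remove histone methylation, and those that supply the methyl donor, were read on the same arrays. Of 18 measured lysine demethylase genes 0 passed the adjusted threshold and 0 had an unadjusted p under 0.05 (limma), with log2 changes above 0 in 10 and below it in 8 (median 0.02). KDM1A, which removes methyl groups from a lysine of histone H3 at enhancers, gave 4100 ± 474.6 (control) and 4410 ± 618 (homocysteine, SD, n = 3 each). KDM3A, a demethylase of the mark that EHMT1 writes, gave 5174 ± 210.5 and 5558 ± 566, and RIOX1, a ribosomal oxygenase, 5115 ± 1359 and 5587 ± 1141 (SD, n = 3 each). KDM3B had the smallest p of the list above background on all arrays, at 710.8 ± 272.1 and 476.1 ± 105.5 (SD, n = 3 each), a log2 change of -0.53 (95% interval -1.50 to 0.44) that became -0.25 without control replicate 3. JMJD6, named after its values were seen, read 1695.2 to 1815.2 in control and 1856.9 to 1874.3 with homocysteine. These groups did not overlap, and its log2 change of 0.09 had an adjusted p of 0.9999 (limma).

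Of 4 measured genes of methyl donor supply 0 passed and 0 had an unadjusted p under 0.05 (limma), and 2 log2 changes were positive and 2 negative. AHCY read higher with homocysteine at each replicate number, by 0.20, 0.28 and 0.27 in log2, with a 95% interval of its change of 0.25 from -0.47 to 0.97. MAT2B, the regulatory subunit of S-adenosylmethionine synthetase, read lower at each number, by -0.23, -0.50 and -0.24 in log2, with an interval from -1.35 to 0.69, and AHCYL1, an AHCY-like protein gene, by -0.27, -0.10 and -0.06. These values are of main sets. With every probe set of a gene averaged, dim ones included, the log2 changes were -0.15 for AHCY, -0.16 for MAT2B and 0.076 for AHCYL1. Across the 6 lists 21 of the 61 genes above background on all arrays kept their sign at all 3 numbers by main sets, or 34.4%. Of all probe sets above background on all arrays, 25.5% did, a share that also counts dimmer sets of a gene and unannotated sets.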
